A study of Mus musculus with 6 samples.

Results

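The samples are mouse cells labelled as bone marrow stromal/stem cells. The genes described here are the regulators that set the activity of the transcription factor NRF2. They are Nfe2l2, which encodes NRF2 itself, its relative Nfe2l1, the competing factor Bach1 and the small Maf partners Maff, Mafg and Mafk. The other genes are the repressor Keap1 with its ubiquitin ligase scaffold Cul3, and the NRF2 target genes Sqstm1 and Osgin1. All these genes were chosen by symbol from the deposited gene table, and all 10 were found, each once, among its 55401 genes. The study sequenced RNA of cultured WT cells (3 libraries) and of cultured Nrf2 knockout cells (3 libraries). Both groups grew in DMEM with 10% fetal bovine serum and antibiotics. The labels give no animal age, knockout allele, driver or treatment, and leave it unsaid if each library had its own animal or culture. A p-value here thus reflects only how far the libraries of a genotype lay apart, and that spread may be technical in part.

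NRF2 is made continuously and, in unstressed cells, is bound by KEAP1, which presents it to the CUL3 ubiquitin ligase for destruction by the proteasome. Oxidants and electrophiles modify KEAP1, NRF2 then accumulates, pairs with a small MAF protein and binds antioxidant response elements (AREs) in front of genes for glutathione synthesis, detoxification and heme breakdown. BACH1 pairs with the same small MAF proteins and represses many of those sites until heme binds it. The autophagy receptor p62, product of Sqstm1, competes with NRF2 for KEAP1.

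The libraries held 18381114 to 21323839 counts, and all 10 genes passed the filter on low counts, with at least 78 counts in every library. Levels are given as CPM, counts per 1e+06 counts of the TMM-scaled library, or, where genes are compared with each other, as the deposited FPKM, which is per kilobase of exon. Of the 12 stromal markers listed, 9 of 11 tested were called lower in knockout, where 18.7% of all tested genes were lower, and 2 were not called. The 12 summed to 1686 CPM in WT replicate 1, 6123 in WT replicate 2, 8571 in WT replicate 3 and 96.5 to 142 in the knockout libraries. All 6 libraries are labelled as stromal, but those of the knockout held little RNA of the stromal markers called lower. None of the 12 was at 0 in either genotype over its 3 libraries. The 12 macrophage markers summed to 18260 to 23640 CPM in WT and 18990 to 20980 CPM in knockout, with 4 of 12 higher and 0 lower, where 14.1% of all tested genes were higher, and a median log2 fold change of 0.51. In 6 of the 12 every knockout library was above every WT library, against 24.9% of all tested genes. In 2 every one was below, against 25.9%. Most of the sum was Lyz2, at 14260 to 16850 CPM in WT and 11690 to 13150 CPM in knockout. The other 11 markers summed to 6782, 4933 and 3998 CPM in WT and 7416, 7834 and 7298 CPM in knockout, so that all knockout libraries were above all WT libraries. With Lyz2 the macrophage sum was above the stromal sum in every library of both genotypes. Without Lyz2 it was above the stromal sum in WT replicate 1 and all knockout libraries, and below it in WT replicates 2 and 3. In these bulk samples fewer cells of a type and less RNA per cell cannot be told apart, and the part of cell content in the results below was not tested.

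In knockout cells 6 of the 10 regulators fell and 0 rose: Nfe2l2, Osgin1, Maff, Sqstm1, Mafg and, by a small margin, Mafk. Nfe2l2 is the gene knocked out, so its fall was set by the design, and it is included in each count and median of the 10 below. Over all 13184 tested genes 18.7% were called lower and 14.1% higher at an edgeR quasi-likelihood adjusted p of 0.05, or 32.9% in either direction. The levels of Keap1 and Cul3 overlapped between genotypes, while Nfe2l1 and Bach1 were lower in all 3 knockout libraries without passing the test. The median log2 fold change of the 10 was -0.47, against -0.01 for all tested genes. The knockout libraries lay below all WT libraries for 8 of the 10 genes, which held for 25.9% of tested genes, and above them for 0 of the 10, against 24.9% of tested genes. The count called lower was 5 after leaving out any 1 library, since the Mafk call was then lost each time.

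**Figure D1:**
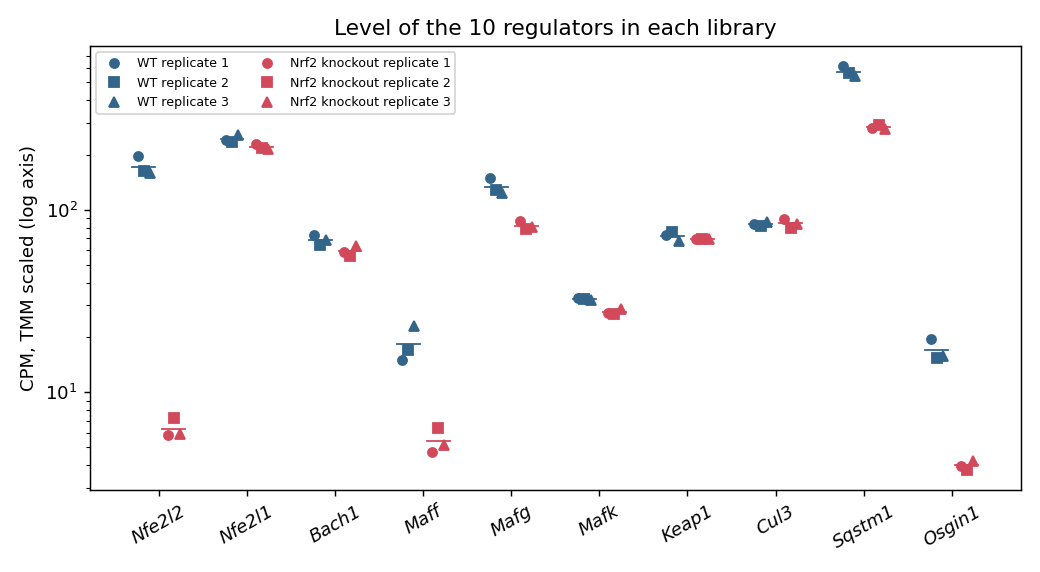
CPM after TMM scaling (log axis) of the 10 regulators in each of the 6 libraries, WT in blue and Nrf2 knockout in red, with a line at each group mean and a symbol for each replicate number. Nfe2l2, Maff, Mafg, Sqstm1 and Osgin1 stand clearly lower in knockout, while Keap1 and Cul3 overlap.

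The level of Nfe2l2 (mm10 chromosome 2, 75675513 to 75704641, minus strand; ENSMUSG00000015839) checks the genotype labels. It had 3591, 3082 and 3628 counts in WT replicates 1, 2 and 3 and 118, 149 and 118 counts in knockout. Scaled, this was 197, 163 and 159 CPM against 5.85, 7.21 and 5.92 CPM. The groups lay far apart, and the fall was 27.3-fold (log2 fold change -4.77, SE 0.14, edgeR adjusted p = 2.2e-05). The knockout libraries kept 3.66% of the WT level, well above the 3 counts taken as a floor. The table gives 1 count for the whole gene, so which exons those reads came from cannot be read from it. By size of change 4.47% of tested genes had a more negative log2 fold change.

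The relative Nfe2l1 and the competitor Bach1 stood at 90.1% and 86.8% of the WT level, without passing the test. Mafk, called by a small margin, stood at a like level of 85.3%. Nfe2l1 encodes NRF1, a membrane-tethered factor that, once processed, switches on proteasome genes (chromosome 11, 96817414 to 96829968, minus strand; ENSMUSG00000038615). It had 242, 236 and 258 CPM in WT and 229, 220 and 215 CPM in knockout, so all knockout libraries were lower, but by a narrow margin. The log2 fold change was -0.15, with a 95% interval from -0.33 to 0.03 and an edgeR adjusted p of 0.18. Bach1 (chromosome 16, 87698945 to 87733346, plus strand; ENSMUSG00000025612) had 73.1, 64.2 and 68.4 CPM in WT and 58.8, 56.1 and 63.6 CPM in knockout. The groups did not overlap, but the nearest libraries differed by less than the spread within either group. Its log2 fold change was -0.21 (95% interval -0.40 to -0.01, edgeR adjusted p = 0.10). The Bach1 interval reaches no further than 0.758 times the WT level, so a fall as large as that of Sqstm1 lay outside it.

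Set against the loss of Nfe2l2, these 2 genes stood in other proportions to it in each genotype. Bach1 stood at 0.228, 0.242 and 0.265 FPKM per FPKM of Nfe2l2 in WT, and at 6.18, 4.77 and 6.60 in knockout. Nfe2l1 and Nfe2l2 were at like levels in WT, with ratios of 0.858, 1.01 and 1.14, and their FPKM ranges overlapped. In knockout Nfe2l1 was 21.2 to 27.4 times Nfe2l2. For each ratio the genotypes did not overlap, and the exact two-sided permutation p was 0.1, the smallest that 3 against 3 libraries allow. These ratios follow from the Nfe2l2 counts and are transcript ratios only.

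The small Maf genes fell by different amounts. They encode short bZIP proteins without a transactivation domain, which serve as the obligate partners of NRF2, NRF1 and BACH1. Maff (chromosome 15, 79346621 to 79359076, plus strand; ENSMUSG00000042622) had 276, 322 and 530 counts in WT and 95, 132 and 103 in knockout. That was 15.1, 17.1 and 23.2 CPM against 4.71, 6.39 and 5.17 CPM, a clear separation although WT replicate 3 stood above the other WT libraries. The fall was 3.40-fold (log2 fold change -1.77, SE 0.20, edgeR adjusted p = 0.0018).

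Mafg, the most abundant of the 3, fell 1.64-fold (chromosome 11, 120625117 to 120633600, minus strand; ENSMUSG00000051510). It had 149, 128 and 124 CPM in WT and 87.3, 78.4 and 80.3 CPM in knockout, without overlap (log2 fold change -0.71, SE 0.09, edgeR adjusted p = 0.0025). The end of Mafg overlaps Sirt7 by 124 bases on the same strand. Sirt7 had 814 to 991 counts in WT and 1015 to 1239 in knockout, the opposite direction. Mafk (chromosome 5, 139791513 to 139802653, plus strand; ENSMUSG00000018143) had 32.8, 32.3 and 32.2 CPM in WT and 27.3, 27.1 and 28.6 CPM in knockout. By CPM the Mafk libraries of each genotype lay close together and the groups did not overlap, with a small difference. By deposited FPKM the WT libraries lay further apart, at 8.01, 8.51 and 8.84, against 6.88, 6.75 and 7.28 in knockout. The log2 fold change of Mafk was -0.23 (SE 0.07, 95% interval -0.40 to -0.06), and the edgeR adjusted p of 0.048 was just past the threshold. The Mafk call was lost under 12 of 17 alternatives. Without WT replicates 1, 2 and 3 its adjusted p was 0.070, 0.13 and 0.071, and without knockout replicates 1, 2 and 3 it was 0.17, 0.13 and 0.11. DESeq2 gave 0.059.

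Summed on the FPKM scale, the small Maf transcripts came to 38.9, 38.7 and 42.2 in WT and 23.9, 22.7 and 23.5 in knockout. The sum in knockout was 58.5% of WT, a difference of -16.6 FPKM (exact two-sided permutation p = 0.1, the smallest possible). Mafg gave 60.7% ± 4.42 of the sum in WT and 61.4% ± 2.13 in knockout (SD, n = 3), so its share overlapped between genotypes. Maff gave 14.3%, 17.4% and 22.7% of the sum in WT and 7.45%, 10.6% and 8.44% in knockout. Mafk gave 20.6% to 22.0% in WT and 28.8% to 31.0% in knockout, without overlap. The ratio of Bach1 to the pool was 0.282 ± 0.0071 in WT and 0.405 ± 0.027 in knockout (SD, n = 3), also without overlap (exact two-sided permutation p = 0.1).

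**Figure D2:**
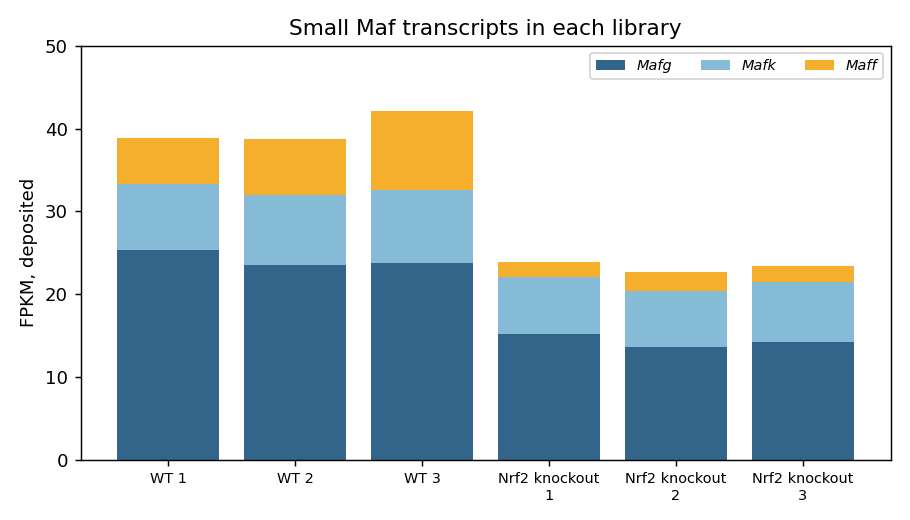
Deposited FPKM of Mafg, Mafk and Maff stacked for each library. The 3 WT libraries reach 38.7 to 42.2 FPKM and the 3 knockout libraries 22.7 to 23.9 FPKM, with the Maff segment shrinking most in proportion.

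Of the repressor complex, Keap1 and Cul3 showed no change past the test. Keap1 (chromosome 9, 21229730 to 21239361, minus strand; ENSMUSG00000003308) had 72.7, 75.9 and 67.2 CPM in WT and 69.4, 69.6 and 69.1 CPM in knockout. The knockout libraries lay within the WT range after TMM scaling, although on the deposited FPKM scale they were just below it, at 14.4 to 14.6 against 14.8 to 16.6. The log2 fold change was -0.05, with a 95% interval from -0.22 to 0.11 (edgeR adjusted p = 0.60), or 0.859 to 1.08 times the WT level. Cul3, the scaffold that links KEAP1 to the ubiquitin machinery (chromosome 1, 80264923 to 80340480, minus strand; ENSMUSG00000004364), had 84.0, 81.5 and 85.4 CPM in WT and 89.6, 80.0 and 83.7 CPM in knockout. Its log2 fold change was 0.01 (95% interval -0.15 to 0.18, edgeR adjusted p = 0.90), and its sign turned with the scaling, to -0.04 with library totals. Keap1 overlaps the opposite-strand gene Gm16754 by 3317 bases. Gm16754 had 15 to 37 counts per library, beside Keap1 counts of 1328 to 1536. How reads in the overlap were counted is not stated, and its effect on the Keap1 counts was not tested.

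The 2 genes listed here as NRF2 targets, Sqstm1 and Osgin1, both fell. Sqstm1 (chromosome 11, 50199366 to 50210827, minus strand; ENSMUSG00000015837) was the most abundant of the 10, with 11210, 10592 and 12404 counts in WT and 5668, 6064 and 5534 in knockout. It stood at 614, 561 and 543 CPM in WT and 281, 294 and 278 CPM in knockout, so the knockout level was 49.6% of WT (log2 fold change -1.01, SE 0.09, edgeR adjusted p = 8.6e-04). The ratio of Sqstm1 to Keap1 FPKM lay between 10.3 and 11.8 in WT and between 5.62 and 5.89 in knockout. Osgin1, whose product is an oxidative stress-induced growth inhibitor (chromosome 8, 119434124 to 119446256, plus strand; ENSMUSG00000074063), was among the least abundant. It had 358, 291 and 363 counts in WT and 80, 78 and 84 in knockout. That was 19.6, 15.4 and 15.9 CPM against 3.97, 3.78 and 4.21 CPM, and the knockout libraries agreed closely. The fall was 4.25-fold (log2 fold change -2.09, SE 0.14, edgeR adjusted p = 4.0e-04).

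**Figure D3:**
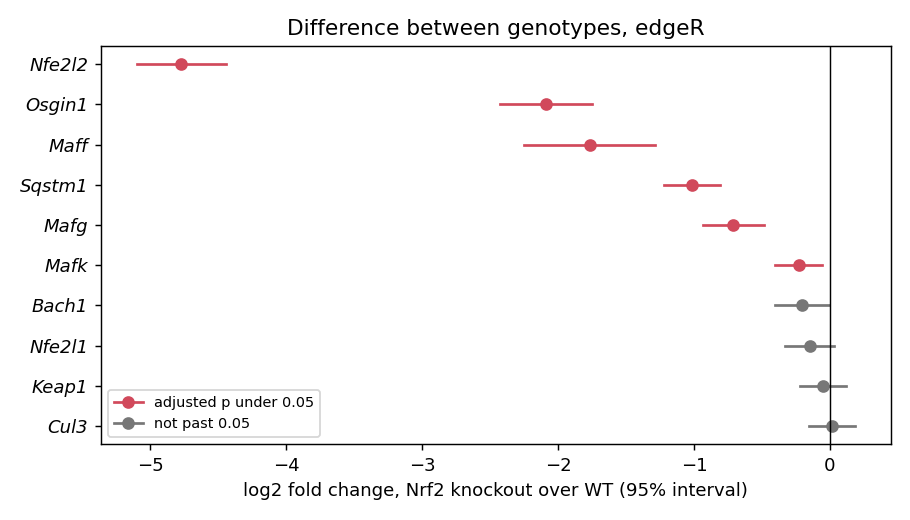
Log2 fold change of each regulator, knockout over WT, from edgeR with its 95% interval; red marks an adjusted p under 0.05. Nfe2l2 stands at -4.77, Osgin1, Maff, Sqstm1 and Mafg between -2.09 and -0.71, and the intervals of Nfe2l1, Keap1 and Cul3 include 0.

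Ordered by deposited FPKM, WT libraries ran from Sqstm1 at 173 ± 1.31 through Nfe2l2 at 46.1 ± 2.83, Nfe2l1 at 45.9 ± 4.44, Mafg at 24.2 ± 1.01, Cul3 at 17.5 ± 1.21, Keap1 at 15.6 ± 0.94 and Bach1 at 11.3 ± 0.60 to Mafk at 8.45 ± 0.42, Maff at 7.29 ± 2.07 and Osgin1 at 6.43 ± 0.54 (SD, n = 3). The neighbours Nfe2l2 and Nfe2l1, Cul3 and Keap1, Mafk and Maff, and Maff and Osgin1 overlapped. In knockout Nfe2l2 dropped from the second place to the ninth, at 1.64 ± 0.19 FPKM, where its range overlapped those of Maff at 2.05 ± 0.32 and Osgin1 at 1.47 ± 0.10. Mafg came down to the level of Keap1, at 14.4 ± 0.84 against 14.5 ± 0.091 FPKM, and those ranges overlapped too.

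The 250 bases upstream of the annotated start sites were searched for the ARE core TGACNNNGC and for the AP-1 type element TGAGTCA, on both strands, in the RefSeq promoter table (GRCm38.p6). These 2 motifs share letters, since an ARE can contain TGACTCA. The 10 genes had 16 such windows. The ARE core was found in 4 of the 16, those of Nfe2l2, Mafg, Maff and Mafk, and in 10.2% of all 32851 windows. The AP-1 type element was found in 1 of the 16, that of Osgin1, and in 4.46% of all windows. The 5 windows with a match are shown. Capitals mark the match and each line is read 5′ to 3′ on the gene's strand.
Nfe2l2, chr2:75704664-75704913, minus strand: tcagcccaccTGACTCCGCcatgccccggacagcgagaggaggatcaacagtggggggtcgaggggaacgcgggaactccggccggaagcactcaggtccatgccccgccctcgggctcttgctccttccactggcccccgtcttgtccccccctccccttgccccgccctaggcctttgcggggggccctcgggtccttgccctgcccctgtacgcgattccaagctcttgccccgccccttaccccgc
Mafg, chr11:120633548-120633797, minus strand: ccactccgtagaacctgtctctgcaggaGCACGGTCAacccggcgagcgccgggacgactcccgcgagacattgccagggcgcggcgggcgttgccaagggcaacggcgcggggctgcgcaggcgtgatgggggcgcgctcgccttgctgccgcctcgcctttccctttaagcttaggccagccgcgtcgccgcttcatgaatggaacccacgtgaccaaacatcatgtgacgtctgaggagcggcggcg
Maff, chr15:79346371-79346620, plus strand: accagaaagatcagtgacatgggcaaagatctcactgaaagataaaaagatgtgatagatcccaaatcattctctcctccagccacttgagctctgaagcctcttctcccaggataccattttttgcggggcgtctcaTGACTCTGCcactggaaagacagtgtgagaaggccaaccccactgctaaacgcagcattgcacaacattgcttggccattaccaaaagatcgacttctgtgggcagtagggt
Mafk, chr5:139791286-139791535, plus strand: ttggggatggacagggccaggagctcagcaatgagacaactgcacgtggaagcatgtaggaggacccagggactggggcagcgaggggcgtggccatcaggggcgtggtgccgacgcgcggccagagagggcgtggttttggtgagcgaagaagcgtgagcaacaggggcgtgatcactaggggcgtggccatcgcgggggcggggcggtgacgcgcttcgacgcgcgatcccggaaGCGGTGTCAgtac
Osgin1, chr8:119436897-119437146, plus strand: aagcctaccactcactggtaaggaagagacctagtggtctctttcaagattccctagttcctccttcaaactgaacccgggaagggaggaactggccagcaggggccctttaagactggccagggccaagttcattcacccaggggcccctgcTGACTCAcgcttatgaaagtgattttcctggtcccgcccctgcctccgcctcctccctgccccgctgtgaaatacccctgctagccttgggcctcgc

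The Nfe2l2 match begins 240 bases upstream of the start site, and the Maff match 112 bases upstream of the first of its 3 start sites. The Mafg match begins 222 bases upstream and the Mafk match 13 bases upstream, both on the other strand, so that capitals there spell the reverse complement of the core. In Osgin1 the element is also on the other strand, so the capitals spell its reverse complement TGACTCA. It begins 97 bases upstream of the RefSeq start site, which lies inside the span the deposited table gives for the gene. The RefSeq start sites of Mafg and Mafk also lie inside their gene spans. The Mafk match falls inside its span, which begins at base 139791513, and the Mafg match lies outside its own. Mafg and Mafk thus both held the core, with falls of 1.64-fold and 1.17-fold. Sqstm1, which fell 2.02-fold, held neither motif in this window. A match describes letters only, and these files hold no binding data.

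Within a genotype the regulators varied little, except Maff. Over the WT libraries the coefficient of variation of CPM was 22.9% for Maff, 13.5% for Osgin1, 12.0% for Nfe2l2 and 10.0% for Mafg, and 1.03% for Mafk. In knockout it was 16.0% for Maff and 0.404% for Keap1. By CPM Nfe2l2, Mafg, Sqstm1, Osgin1, Bach1 and Mafk were each highest in WT replicate 1. That WT library had the lowest summed stromal markers (1686 CPM) and the highest summed macrophage markers (23640 CPM). This order depended in part on the scaling. By deposited FPKM Bach1 and Mafk were highest in WT replicate 3, and Sqstm1 was nearly even at 174, 172 and 173 in WT replicates 1, 2 and 3. Maff instead was highest in WT replicate 3, where the stromal markers summed to 8571 CPM.

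Taken library by library on the CPM scale, WT replicate 1 stood at 31.1 times the knockout mean for Nfe2l2 and 4.92 times for Osgin1. It stood at 2.16 times for Sqstm1 and 1.82 times for Mafg. WT replicate 3 stood at 25.1, 3.99, 1.91 and 1.52 times for these genes in the same order. For Maff the ratio went from 2.79 in WT replicate 1 to 3.15 in WT replicate 2 and 4.28 in WT replicate 3.

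**Figure D4:**
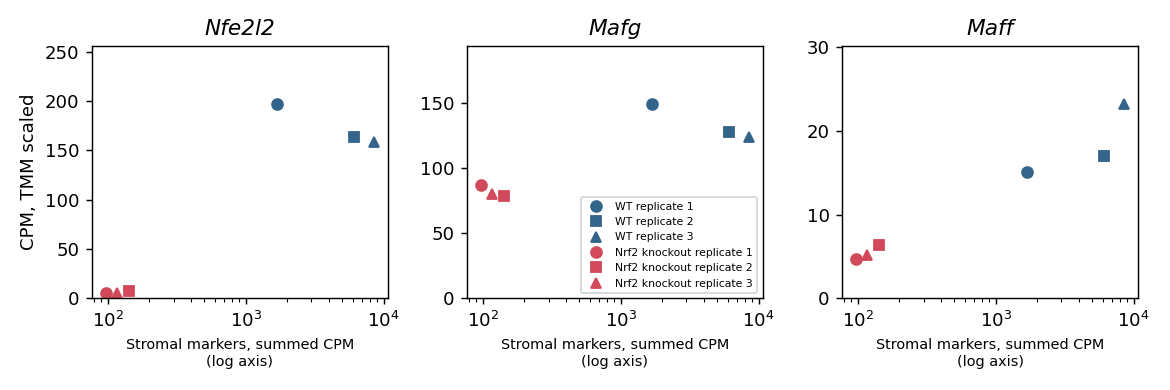
CPM of Nfe2l2, Mafg and Maff in each library against the summed CPM of the 12 stromal markers (log axis), WT in blue and Nrf2 knockout in red. Among WT libraries Nfe2l2 and Mafg are highest, and Maff lowest, where the stromal sum is lowest (1686 CPM).

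Genes that act on or with these regulators were described in 6 lists, which held 59 tested genes when each was counted once. Of these 17 were called (28.8%), against 32.9% of all tested genes. The 13 higher genes made up 22.0%, against 14.1% of all tested genes, and the 4 lower genes 6.78%, against 18.7%. Among the other CNC, BACH and large MAF factors 1 of 4 tested rose and 0 fell. Maf, which encodes c-MAF, rose from 87.2 ± 7.55 to 140 ± 4.36 CPM (SD, n = 3; log2 fold change 0.68, edgeR adjusted p = 0.0019). Nfe2, the blood-cell member of the NRF2 family, was at 0.518 ± 0.21 CPM in WT and 1.17 ± 0.19 in knockout (SD, n = 3; edgeR adjusted p = 0.057). Nfe2l3 and Nrl were not tested because their counts were too low. Without WT replicate 3 the number called higher in this list was 2.

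In the list of NRF2 ubiquitination and turnover 3 of 13 tested rose and 0 fell, where 14.1% of all tested genes rose and 18.7% fell, with a median log2 fold change of 0.04. They were Usp11, a deubiquitinase, at 1.12, Dcaf11, a CUL4 ligase adaptor, at 0.45 and Cops5, a COP9 signalosome subunit, at 0.26 (log2 fold changes; edgeR adjusted p = 0.013, 0.034 and 0.024). The Dcaf11 and Cops5 calls were lost without WT replicate 2, without WT replicate 3 and without any 1 knockout library, with adjusted p from 0.053 to 0.12. The Usp11 call was lost without knockout replicate 1 (adjusted p = 0.058). Leaving out single libraries gave 0 to 4 higher calls in this list, with 0 without knockout replicate 1 and 1 without WT replicates 2 or 3 or knockout replicates 2 or 3.

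Among KEAP1 binding partners 3 of 8 tested rose and 0 fell (median log2 fold change 0.22), a count that 1 library could bring to 0, where 14.1% of all tested genes rose: Palb2, Trim21 and Ptma, with log2 fold changes of 0.78, 0.55 and 0.28 (edgeR adjusted p = 0.013, 0.047 and 0.035). The count ran from 0 without knockout replicate 3 to 6 without WT replicate 1, and was 1 without WT replicate 2 and without knockout replicates 1 or 2. Without knockout replicate 3 the adjusted p was 0.054 for Palb2, 0.16 for Trim21 and 0.13 for Ptma. The Trim21 call was also lost without WT replicate 2 (adjusted p = 0.13), WT replicate 3 (0.095), knockout replicate 1 (0.12) and knockout replicate 2 (0.071). That of Ptma was lost without WT replicate 2 (0.15), knockout replicate 1 (0.13) and knockout replicate 2 (0.066).

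Of the partners of p62 in autophagy 3 of 15 were called higher and 2 lower, where 14.1% of all tested genes were higher and 18.7% lower (median log2 fold change 0.08). Map1lc3a, an LC3 protein of the autophagosome membrane, fell from 32.5 ± 5.46 to 15.3 ± 2.20 CPM (SD, n = 3; log2 fold change -1.09, edgeR adjusted p = 0.0033). The receptors Tax1bp1 and Optn rose, with log2 fold changes of 0.55 and 0.60 (edgeR adjusted p = 0.0070 and 0.013). The Optn call was lost without WT replicate 2 and without any 1 knockout library, with adjusted p from 0.051 to 0.058. Leaving out single libraries gave 1 to 6 higher calls, with 6 without WT replicate 1 and 1 without WT replicate 2 or knockout replicates 1 or 3. It gave 1 to 4 lower calls, with 4 without WT replicate 3 and 1 without WT replicate 2 or any 1 knockout library.

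Genes that process NRF1 showed 2 of 11 higher and 0 lower (median log2 fold change -0.04), where 14.1% of all tested genes were higher and 18.7% lower. Ngly1, the glycanase that edits NRF1, and Fbxw7, a ubiquitin ligase subunit, had log2 fold changes of 0.38 and 0.35 (edgeR adjusted p = 0.042 and 0.025). Both calls were lost without any 1 knockout library, with adjusted p from 0.068 to 0.13. The Ngly1 call was also lost without WT replicate 2 (0.13) and the Fbxw7 call without WT replicate 3 (0.063), so that 1 gene was called in each of these cases and 0 without any 1 knockout library. Of genes that control or assist BACH1 and the CNC factors 2 of 10 fell and 1 rose, where 18.7% of all tested genes fell and 14.1% rose (median log2 fold change -0.08). Rxra, a nuclear receptor that can bind NRF2, fell from 156 ± 19.7 to 87.1 ± 1.88 CPM (SD, n = 3; log2 fold change -0.84, edgeR adjusted p = 0.0019). Crebbp, an acetyltransferase coactivator, fell with a log2 fold change of -0.47 (edgeR adjusted p = 0.021), a call lost without knockout replicates 2 (0.058) or 3 (0.068). Hmmr, whose product acts on the mitotic spindle, rose with a log2 fold change of 1.20 (edgeR adjusted p = 0.014), a call lost without knockout replicates 1 (0.053) or 3 (0.056).

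The enzyme genes that depend on NRF2 stood apart from these lists in size: 19 of 22 tested fell and 0 rose, with a median log2 fold change of -1.94 and a range from -9.05 to -0.12. Gclm, Gsr and Txnrd1, which act in glutathione synthesis, glutathione recycling and thioredoxin reduction, had log2 fold changes of -3.86, -2.79 and -2.67 (edgeR adjusted p = 2.2e-05, 2.3e-05 and 4.0e-05). The list's members were chosen as known NRF2 targets, and its count is read beside the 18.7% of all tested genes called lower.

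**Figure D5:**
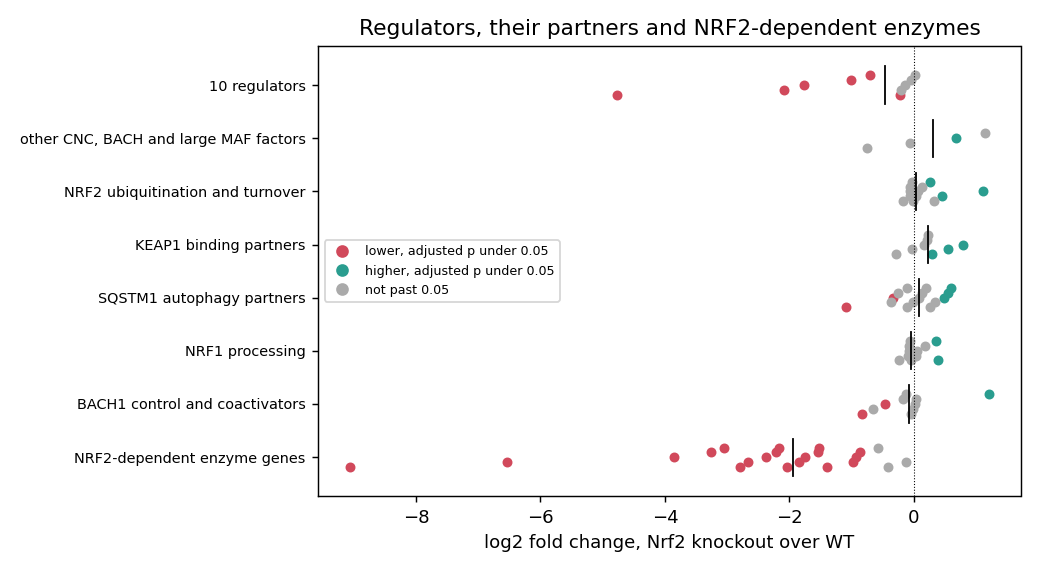
Log2 fold change, knockout over WT, of every tested gene in the 10 regulators and in 7 lists around them; red is lower and green higher at an adjusted p under 0.05, grey did not pass, and a black bar marks each median. The medians are -0.47 for the regulators and -1.94 for the NRF2-dependent enzymes, and between -0.08 and 0.31 for the other 6 lists.

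The 5 protein-coding genes with a profile most like that of Nfe2l2, of 6016 compared over the 6 libraries, were Clec4n, Id3, Gclm, Olfml3 and Fn1. Likeness was the root mean square difference of log2 CPM, each gene centred on its own mean, and ran from 0.435 for Clec4n to 0.607 for Fn1. Gclm, at 259, 248 and 229 CPM in WT and 18.0, 14.9 and 17.7 CPM in knockout, followed the same order among WT libraries as Nfe2l2 by CPM. By deposited FPKM the orders differed, with Gclm at 39.2, 40.4 and 39.0 and Nfe2l2 at 49.4, 44.2 and 44.8 in WT replicates 1, 2 and 3. Clec4n, a C-type lectin receptor of myeloid cells, Id3, an inhibitor of bHLH factors, and Fn1, fibronectin, were instead lowest in WT replicate 1 on both scales. Id3, for example, had 12.7, 20.6 and 28.7 CPM in WT and 0.645, 0.678 and 0.753 CPM in knockout. Olfml3, an extracellular matrix protein, was even over WT libraries at 103, 107 and 102 CPM, and had 7.04, 6.73 and 8.48 CPM in knockout. Likeness here rests mainly on the size of the difference between genotypes, which many genes share.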

How the data were processed

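Messenger RNA libraries were made from 1 μg total RNA per sample, per the labels' protocols. The deposited table holds raw read counts per gene and the authors' FPKM for 6 libraries. Per the submitters' processing notes, mm10 was the build and the tools included HTSeq 0.6.1, HISAT2 2.0.1 and DESeq2, with no role stated for each. Each deposited FPKM equals count over exonic length and column total within 0.005. No source used here says if counting used strand, so reads of antisense or otherwise overlapping genes may be mixed. Knockout columns were matched to samples by their last number; their middle number is not explained. Coordinates are the table's, and those of all 10 regulators equal GENCODE M21.

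Counts were tested with edgeR 4.0.16 in R 4.3.3 (quasi-likelihood test, filterByExpr with minimum count 10, TMM, genotype as the only term, Benjamini-Hochberg adjustment over all tested genes, call under 0.05). Standard errors were derived from the F statistic (log2 fold change divided by its root), and intervals are 95% t intervals. A count of 3 corresponds to 0.141 to 0.163 CPM. Replicates differed by more than sampling noise, and WT far more so than knockout. Chi-square per degree of freedom was 33.2 to 162 for pairs of WT libraries and 3.24 to 8.26 for pairs of knockout libraries. The fit used 1 dispersion per gene for both genotypes. Scripts were tested on simulated data. Alternatives used DESeq2 1.42.0, limma 3.58.1, other scalings and filters, a fit with a replicate block, fits that dropped 1 library at a time, and, chosen after the data were seen, a fit with WT replicate 1 as the only WT library. The regulators and lists were chosen with earlier results of these data known. Named genes are the regulators, up to 3 called genes with the smallest p per list, and the 5 profiles nearest Nfe2l2. The result of 1 listed gene is not reported here.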

Additional observations from a re-analysis of the deposited data

How the results depend on the processing

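The number of genes called was 4333 in all, 1865 higher and 2468 lower. It was 2019 with a mean FPKM of at least 5, where 6394 genes were tested, and 2491 to 6901 after leaving out single libraries, highest without WT replicate 1 and lowest without knockout replicate 1; dropping WT replicate 2 gave 2687, and dropping knockout replicates 2 or 3 gave 2748 or 2574. Among the regulators 6 were called lower under 5 of 17 alternatives, 5 under 11 and 4 under 1 (mean FPKM of at least 5, which left Maff and Osgin1 untested), and 0 were called higher under any. Of the 5 with 6 calls, 1 used WT replicate 1 as the only WT library, was chosen after the data were seen, takes its spread from the knockout libraries alone (the lone library is assumed to vary like them), and called Bach1 but not Mafk. Nfe2l2, Mafg, Maff, Sqstm1 and Osgin1 kept direction and call wherever they were tested, with log2 fold changes from -4.96 to -4.16, -0.87 to -0.62, -1.89 to -1.42, -1.12 to -0.95 and -2.30 to -1.59. Mafk lost its call under 12 alternatives, with adjusted p from 0.027 to 0.34 over all 17. Cul3, which never passed, turned negative under 6: -0.0369 with library totals, -0.0365 with a mean FPKM of at least 5, -0.0336 with limma on log2(FPKM + 1), -0.0353 with limma on log2(FPKM + 0.1), -0.0048 without WT replicate 2 and -0.0234 without knockout replicate 1, over a leave-one-out range up to 0.0583. The share of lower calls was 57.0%, against 48.7% with limma on log2(FPKM + 1) and 48.9% when scaled to the macrophage markers. The small Maf difference ran from -17.2 to -15.5 FPKM. For the 22 other named genes 295 of 365 values kept direction and call and 70 lost the call. Replicate numbers were not shown to pair the libraries: deviations of same-numbered libraries correlated at 0.20, 0.14 and 0.078, and 5 of 6 correlated best with their own number. With a replicate block 4174 genes and 5 regulators were called, with Mafk at an adjusted p of 0.11. The cause of these shifts was not tested. At this depth a level under 0.163 CPM would be near the floor, which none of the 10 genes approached.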
